A study of Drosophila melanogaster with 40 samples.

Results

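Wild-type Drosophila embryos were examined for how they divide their mRNAs between the polysomal and the free part of a sucrose gradient. The members were the arrays labelled as fractions 1, 3 and 4 of the wild-type gradients, replicates 1 to 3, which is 9 of the 40 arrays of the series. Wild type was the w1118 stock, and embryos were collected 0 to 2 h after egg laying, a window in which most mRNA is still of maternal origin. Pools 3 and 4, of 3 mL each and with the pellet in pool 4, came from the bottom of the gradient and held mRNA bound by several ribosomes. Pool 1, the top 4 mL, held free mRNA, and pool 2, the next 2 mL, held a mixture. The other gradients used here came from embryos of mothers homozygous for smaug1: 3 gradients without a drug added to the lysate, 2 from lysate treated with puromycin and 2 from lysate treated with cycloheximide. Cycloheximide was also a component of the buffer in which embryos were lysed for the wild-type gradients and for the smaug-mutant gradients without an added drug. For the drug gradients a lysate in another buffer, with less magnesium and with potassium in place of sodium chloride, was split between puromycin and cycloheximide and warmed, so these differ from wild type in genotype and in handling. Whether the buffer in which the puromycin samples were then diluted still held cycloheximide is not clear from the methods. Whole embryos were lysed, so differences between regions of the embryo, or between ages within the window, cannot be seen.

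In a polysome gradient, RNA sinks further the more ribosomes it carries. An mRNA loaded with many ribosomes is therefore found near the bottom, and one without ribosomes stays near the top. The position does not say whether the ribosomes are moving, and a repressed mRNA can be on polysomes. The early fly embryo makes little new RNA and controls its proteins largely through which of the mRNAs laid down in the egg are loaded with ribosomes. Puromycin ends the growing peptide chain and releases ribosomes from mRNA, whereas cycloheximide halts them on it.

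The translation index of a transcript is its mean log2 level in pools 3 and 4 minus its log2 level in pool 1 of the same gradient. An index of 0 means that its place within the array was the same in both parts, because every array was first centred on its median over the 6524 transcripts measured. The deposited scale itself was set by plant RNA added to each pool in a fixed amount. On that scale array medians lay between 11.3 and 12.4 in pools 3 and 4, against 12.1 to 12.7 in pool 1. Pools 3 and 4 together held a median of 55.6%, 47.1% and 47.2% of the signal of a transcript in gradients 1, 2 and 3, a mean of 50.0% ± 4.90 (SD, n = 3). Before centring, gradients 1, 2 and 3 had a median index of 0.09, -0.90 and -0.33 (mean -0.38 ± 0.50, SD, n = 3). The gradients thus differed in sign. By an exact two-sided sign-flip permutation test p was 0.5, and 3 gradients cannot give one below 0.25. With the log2 levels of pools 1 and 2 averaged on the free side, the mean of the medians was 0.10. Array medians were lower in pool 2 than in pool 1, with means of 11.5 and 12.5. Averaging therefore lowers the free side and does not add the RNA of pool 2 to it. The change of sign thus says nothing about counting pool 2 as free.

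In pool 1 and in the centred index, gradient 1 stood apart from the other wild-type gradients. It was the one gradient labelled with Cy3, and gradients 2 and 3 were labelled with Cy5. Across transcripts, which are not independent observations, its pool 1 correlated at r = 0.51 and 0.57 with pool 1 of gradients 2 and 3, which correlated with each other at r = 0.86. Pool 1 of wild-type gradient 1 correlated at r = 0.92 with pool 1 of smaug-mutant gradient 1, hybridised in the opposite dye. For the centred index, r was 0.54 between gradients 1 and 2, 0.63 between 1 and 3, and 0.73 between 2 and 3. Pool 4 was more alike between gradients, with r from 0.83 to 0.95. In pools 2, 3 and 4 the most alike were gradients 1 and 3, of different dyes, at r = 0.86, 0.87 and 0.95. There gradient 2 correlated with gradient 1 at r = 0.69, 0.69 and 0.83, and with gradient 3 at r = 0.68, 0.77 and 0.87. The part of the dye in these differences was not tested, and Cy3 holds 1 wild-type gradient only, so that values within a dye can be given for gradients 2 and 3 alone.

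Transcripts of wild-type embryos differed widely in their polysomal fraction. The mean centred index had an SD of 1.38 over transcripts, and its 5th and 95th percentiles were -1.77 and 2.68, which is a 21.9-fold spread. The SD between the 3 gradients of a single transcript had a median of 0.69. The distribution leaned toward high values, with quartiles at -0.76 and 1.06 around a median of 0.09. An index above 0 in every gradient was found for 2143 transcripts (32.8%), one below 0 in every gradient for 1898 (29.1%), and 2483 changed side between gradients.

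**Figure D1:**
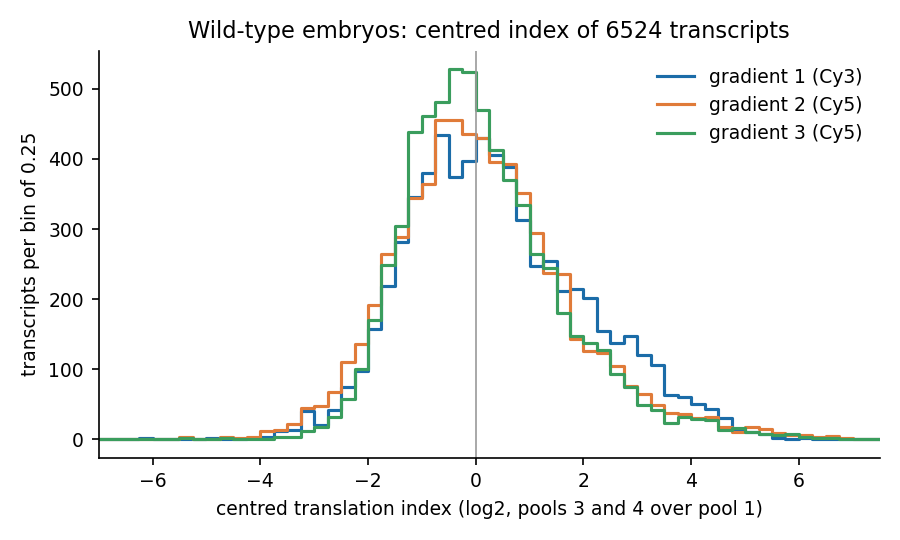
Histogram of the centred translation index (x axis, log2 of pools 3 and 4 over pool 1, in bins of 0.25) of 6524 transcripts, with 1 line per wild-type gradient and the number of transcripts per bin on the y axis. All 3 lines peak slightly below 0 and have a longer arm on the right, and the arm of gradient 1 is the fullest between 2 and 4.

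At an adjusted p under 0.05 in limma's one-sample test on 3 gradients, 883 transcripts were higher in pools 3 and 4 than in pool 1 and 543 were lower. These are 13.5% and 8.32% of all transcripts, together 21.9%. At an unadjusted p under 0.05 there were 1484 and 1156. Every called transcript had its index on the same side of 0 in all 3 gradients. The 883 higher transcripts had a median index of 2.40 and ranged from 1.31 to 6.11, and 63 of them were at 4 or more. The 543 lower transcripts had a median of -1.82 and ranged from -1.31 to -5.88, with 7 at -4 or less. For 827 of the higher and 523 of the lower transcripts, the range of pools 3 and 4 over gradients did not overlap that of pool 1. Over all transcripts, called or not, such non-overlap was seen in 23.5% with pools 3 and 4 higher and in 20.9% with them lower. The last called transcript had an adjusted p of 0.049994 in limma and the first not called one of 0.050018.

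The counts rested on gradients 2 and 3. Without gradient 1 there were 958 higher and 625 lower calls, of which 761 and 438 were among the calls above. Without gradient 2 there were 73 higher and 9 lower calls. Without gradient 3 limma called 0 transcripts, although an unadjusted p under 0.05 was reached by 1005 on the higher and 577 on the lower side. The division into 61.9% higher and 38.1% lower calls depended on the scaling. It was 40.6% and 59.4% on the spike-in scale, where the median of all transcripts lay at -0.38 in place of 0.04 (means over the 3 gradients), 49.4% and 50.6% after quantile normalization of the 9 arrays, and 45.2% and 54.8% with a trended and robust variance in limma.

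The levels of the called transcripts were followed through all 4 pools. The higher transcripts had median centred levels of 0.86 ± 0.15 in the heaviest pool 4, 0.40 ± 0.09 in pool 3, and -0.42 ± 0.18 in the mixed pool 2, against -2.03 ± 0.35 in the free pool (SD, n = 3 gradients). Pool 2 took no part in the call. The groups were chosen for opposite values in the free and polysomal pools, so a pool near the median falls between these. Nothing is read from its place for that reason. In pool 2 the medians of the higher and of the lower transcripts were both below 0 in each gradient. Pool 4 held a median of 45.9% of the signal of the higher transcripts and pool 3 held 28.8%. The free pool held 9.20% and the mixed pool 12.1%. The lower transcripts ran the opposite way, with median centred levels of -1.36 ± 0.41 in the heaviest pool 4, -1.08 ± 0.16 in pool 3 and -0.29 ± 0.26 in the mixed pool 2, against 0.68 ± 0.17 in the free pool. Pools 3 and 4 together held 25.2% ± 4.66 of their signal (SD, n = 3) and the free pool 57.8%. For the higher transcripts, pools 3 and 4 held 76.8% ± 3.33. Transcripts called lower were thus found in the polysomal pools as well, with a smaller part of their signal.

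**Figure D2:**
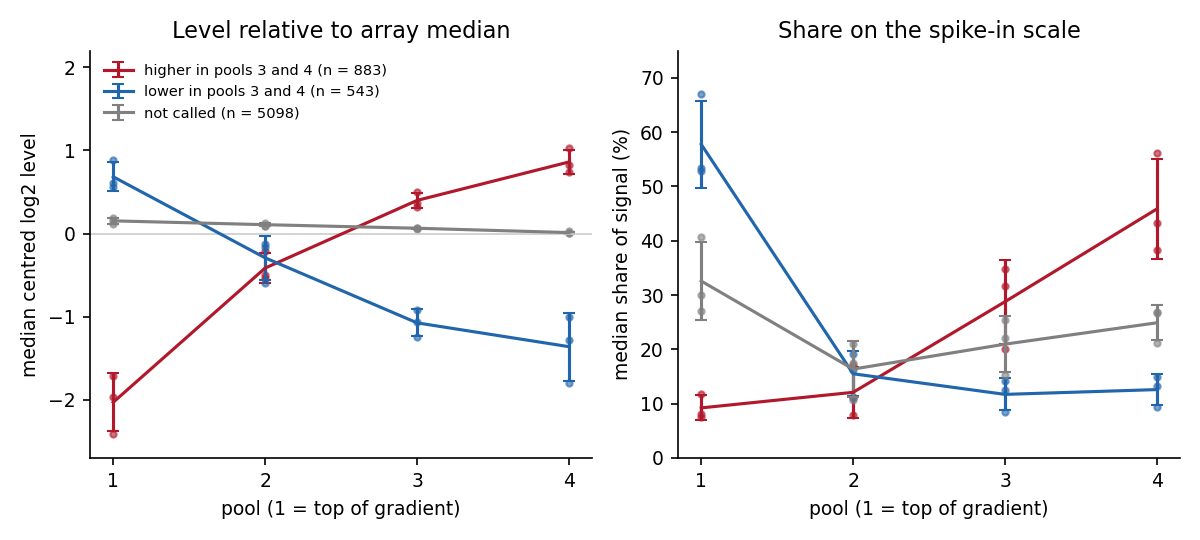
Left, the median log2 level relative to the array median, and right, the median share of signal on the spike-in scale (%), in pools 1 to 4 of the wild-type gradients for the 883 higher, 543 lower and 5098 not called transcripts. Points are the 3 gradients, lines their means and bars ± 1 SD; on the left, higher transcripts climb and lower transcripts decline from pool 1 to pool 4, and the not called transcripts stay near 0.

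The levels that chose the 2 groups also give their division between the polysomal pools, as a description. Among the higher transcripts the median of pool 4 minus pool 3 was 0.18, 0.61 and 0.20 in gradients 1, 2 and 3 on the centred log2 scale. Among the lower transcripts it was -0.07, -0.65 and -0.01, and over all transcripts -0.05, -0.02 and -0.06. Both groups were chosen on the mean of these pools, and the spread over transcripts was wider in pool 4 (SD 1.30, 1.82 and 1.36) than in pool 3 (SD 1.24, 1.52 and 1.33), with the widest gap in gradient 2. Nothing is read from the signs for that reason.

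The index was spread most widely among transcripts with a low signal. When transcripts were divided into 4 bins of 1631 by their mean level over the 12 wild-type arrays, the SD of the index was 1.68, 1.47, 1.28 and 0.98 in bins 1 to 4, bin 1 being the lowest. The share called higher was 17.4% in bin 1 and 9.01% in bin 4, and the share called lower 12.4% and 2.27%. The median SD between gradients also declined, with 0.96 in bin 1 and 0.52 in bin 4. The index itself had no steady direction with level, with Spearman's rho of -0.10, 0.07 and -0.03 across transcripts in gradients 1, 2 and 3.

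Transcripts are identified in the data by FlyBase number, and 35 of the 6524 could be given a gene symbol. Of these, 27 are listed in RefSeq's gene table through a main or an upstream reading frame of the transcript, and 22 carry the names of more than 1 gene because 1 mRNA encodes several proteins. Limma called 7 of the 35 higher and 2 lower, which is 25.7% against 21.9% of all transcripts, and left 26 uncalled. Their median index was -0.09, against 0.09 for all transcripts. Among the 27 transcripts with such reading frames, 3 were higher, 2 lower and 22 not called, or 18.5% called, with a median of -0.27. The median was 0.19, -0.49 and -0.27 in gradients 1, 2 and 3 and thus differed in sign. It was -0.04 without gradient 2, -0.08 without gradient 3 and -0.67 with pool 4 alone. On the spike-in scale, where the median over all transcripts was -0.34, it was -0.69. As background, an upstream reading frame lies ahead of the main one, and ribosomes can translate it in place of or in addition to the main frame.

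**Figure D3:**
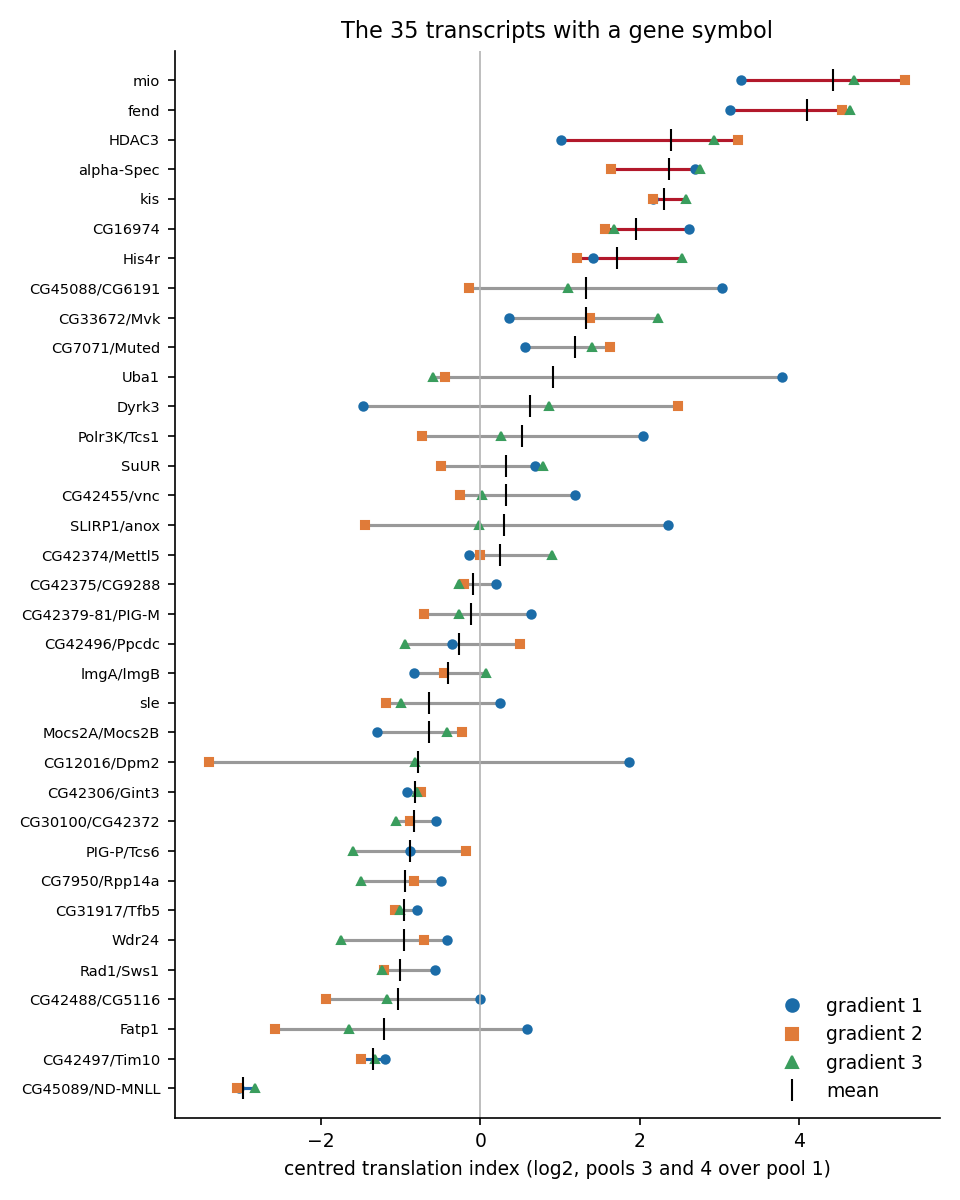
Centred translation index (x axis, log2 of pools 3 and 4 over pool 1) of the 35 transcripts with a gene symbol, ordered by mean from top to bottom. Symbols are the 3 gradients, black ticks their mean, and the horizontal line spans the gradients, in red for the 7 called higher, blue for the 2 called lower and grey for the others; mio and fend at the top and CG45089/ND-MNLL at the bottom keep clear of 0 in every gradient, while Uba1, Dyrk3 and CG12016/Dpm2 cross it with a wide span.

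The highest index among named transcripts was that of mio (FBtr0077835), which encodes a subunit of GATOR2, a complex that keeps the growth kinase TORC1 active and that in the fly ovary is needed for the oocyte to keep its fate. Its centred log2 level in pools 3 and 4 was 0.10, -0.37 and 0.05 in gradients 1, 2 and 3, against -3.16, -5.71 and -4.64 in pool 1. The polysomal level was close to that of the median transcript in every gradient, and the free level was far below it. Whether that free level was above background was not checked. The index was 4.43 (SE 0.50, limma adjusted p = 0.00893), or 21.6-fold, and 90.8% ± 4.15 of the signal lay in pools 3 and 4 (SD, n = 3). The mean level of mio lay at percentile 9.56, in the bin of lowest signal, where the index was spread most widely. After quantile normalization its index was 3.39. Wdr24 (FBtr0085543), another subunit of GATOR2, had 0.40, -0.15 and 0.31 in pools 3 and 4, against 0.82, 0.555 and 2.06 in pool 1. Its index was below 0 in each gradient and was not called (-0.96, SE 0.43, limma adjusted p = 0.145), but was with the mean of pools 1 and 2 in the denominator (-0.96, limma adjusted p = 0.0223). Mio minus Wdr24 was 3.69, 6.04 and 6.44 in the index, a mean of 5.39 ± 1.49 (SD, n = 3, exact two-sided sign-flip permutation p = 0.25, the smallest possible).

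Genes acting on chromatin were found at different places in the order. For HDAC3 (FBtr0078767), a histone deacetylase, the level was 0.76, 0.91 and 0.91 in pools 3 and 4, against -0.25, -2.33 and -2.03 in pool 1. For kis (FBtr0078144), the chromatin remodelling factor Kismet, it was 1.09, 0.47 and 0.67 in pools 3 and 4, against -1.08, -1.70 and -1.92 in pool 1. Both were above the median transcript in the polysomal pools and below it in the free pool of all 3 gradients. HDAC3 had an index of 2.39 (SE 0.53, limma adjusted p = 0.0296), and kis one of 2.31 (SE 0.37, limma adjusted p = 0.0154). SuUR (FBtr0076203), which limits DNA replication in heterochromatin of polytene cells, had an index of 0.68, -0.49 and 0.79 in gradients 1, 2 and 3 and was not called (0.33, SE 0.43, limma adjusted p = 0.593).

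His4r (FBtr0082962) encodes histone H4 from a gene outside the replication-dependent cluster. Its level was -3.02, -4.77 and -3.97 in pools 3 and 4, against -4.43, -5.99 and -6.50 in pool 1, so that the ranges of the pools overlapped while each gradient had the higher value in pools 3 and 4. In pool 2 it stood at -1.08, -1.33 and -2.53, above the other pools in every gradient. The index was 1.72 (SE 0.43, limma adjusted p = 0.0379), and it passed the test in 4 of 13 alternatives. Among those in which it did not were the spike-in scale (limma adjusted p = 0.117), quantile normalization (0.0839), pool 4 alone (0.124) and unpaired pools (0.107). With pool 2 averaged into the free side the index was -0.28, and its mean level lay at percentile 0.0766 of all transcripts, among the weakest signals measured.

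Of the membrane and skeletal genes, alpha-Spec (FBtr0072789), which encodes the alpha chain of spectrin in the skeleton under the cell membrane, had levels of -1.48, -0.98 and -0.73 in pools 3 and 4, against -4.18, -2.63 and -3.49 in pool 1. The groups did not overlap, and the index was 2.37 (SE 0.42, limma adjusted p = 0.0184). Its mean level lay at percentile 10.7 of all transcripts. Fend (FBtr0071349) had 0.05, -0.28 and -0.21 in pools 3 and 4, against -3.09, -4.82 and -4.84 in pool 1. It resembled mio in that a level near the median in the polysomal pools was set against a low one in the free pool. Its index was 4.11 (SE 0.45, limma adjusted p = 0.00874), and 3.04 after quantile normalization. The mean level lay at percentile 14.5, also in the bin of lowest signal. CG16974 (FBtr0080489) had 1.08, 0.07 and 0.76 in pools 3 and 4, against -1.54, -1.50 and -0.92 in pool 1, with an index of 1.96 (SE 0.41, limma adjusted p = 0.0255). Its call was lost on the spike-in scale (1.53, limma adjusted p = 0.0741) and with pool 3 alone (1.78, limma adjusted p = 0.0577).

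Both named transcripts that were called lower encode a small mitochondrial protein beside a second product, but they are too few to be read as a group. The transcript of CG45089 and ND-MNLL (FBtr0071140), the second of which is a subunit of respiratory complex I, had levels of -2.92, -3.40 and -3.15 in pools 3 and 4, against 0.12, -0.34 and -0.32 in pool 1. The free level was near the median transcript and the polysomal level well below it, alike in the 3 gradients. The index was -2.97 (SE 0.37, limma adjusted p = 0.00994), which is 7.86-fold lower in the polysomal pools, and these held 11.8% of the signal. For the transcript of CG42497 and Tim10 (FBtr0071676), Tim10 being a chaperone of the mitochondrial intermembrane space, levels were 0.76, 0.09 and 0.36 in pools 3 and 4, against 1.95, 1.60 and 1.68 in pool 1. Its index of -1.34 (SE 0.37, limma adjusted p = 0.0465) lay close to the threshold and passed it in 8 of 14 alternatives. It did not pass with pool 3 alone (-1.26, limma adjusted p = 0.0883) or pool 4 alone (-1.43, limma adjusted p = 0.0525).

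Several transcripts had all 3 gradients below 0 without passing the test. The one shared by CG31917 and Tfb5, a subunit of the transcription factor TFIIH, had an index of -0.79, -1.07 and -1.01 (limma adjusted p = 0.103). That of CG42306 and Gint3 had -0.92, -0.74 and -0.80 (limma adjusted p = 0.144). PIG-P, which takes part in making GPI anchors, and Tcs6, named for a role in tRNA modification, share a transcript with -0.88, -0.18 and -1.59 (limma adjusted p = 0.173). The molybdopterin synthase pair Mocs2A and Mocs2B, encoded together, had a mean index of -0.65 (SE 0.41, limma adjusted p = 0.274). The first 3 of these had means of -0.96, -0.82 and -0.88, below the lower quartile of all transcripts at -0.76, and Mocs2A/Mocs2B lay above it. On the higher side, the transcript of CG7071 and Muted, a subunit of the BLOC-1 complex of lysosome-related organelles, had 0.56, 1.63 and 1.40 (limma adjusted p = 0.0799), and that of CG33672 and Mvk, the mevalonate kinase of isoprenoid synthesis, had 0.36, 1.38 and 2.24 (limma adjusted p = 0.0901).

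For other named transcripts the gradients gave opposite answers. Uba1 (FBtr0088499), the enzyme that activates ubiquitin, had levels of 1.66, 1.55 and 1.53 in pools 3 and 4, against -2.13, 1.99 and 2.13 in pool 1. The polysomal level was high and steady, and the free level of gradient 1 was the single value apart. Its mean index was 0.92 (SE 0.88, limma adjusted p = 0.464), and without gradient 1 it was -0.52. Fatp1 (FBtr0080133), a fatty acid transport protein, had -2.77, -2.34 and -2.39 in pools 3 and 4, against -3.36, 0.24 and -0.73 in pool 1, with a mean index of -1.21 (SE 0.64, limma adjusted p = 0.203). Without gradient 1 it was called, at -2.11 (limma adjusted p = 0.0233), as it was after quantile normalization (-1.90, limma adjusted p = 0.0132). There too gradient 1 had the lowest free level, while the polysomal levels lay close together.

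The transcript of CG12016 and Dpm2, the regulatory subunit of dolichol-phosphate mannose synthase, had the widest span of the named transcripts, with -1.57, -3.71 and -1.24 in pools 3 and 4, against -3.43, -0.32 and -0.42 in pool 1. Dyrk3 (FBtr0100406), a protein kinase, had an index of -1.48, 2.48 and 0.86, and its mean level lay at percentile 0.445 of all transcripts. In neither did the mean index pass the test (limma adjusted p = 0.551 and 0.553), and neither had a steady sign. The nucleolar gene sle (FBtr0082231) had 0.25, -1.18 and -0.998, and the transcript of lmgA and lmgB had -0.84, -0.45 and 0.08. The remaining 10 named transcripts were not called and had mean indices between -1.04 and 1.33.

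Most transcripts at the ends of the order carry no symbol here. FBtr0070896 had the highest index of all, with levels of 0.92, 1.24 and 1.20 in pools 3 and 4, against -4.03, -5.71 and -5.24 in pool 1, and an index of 6.11 (SE 0.50, limma adjusted p = 0.00836). FBtr0082699 came next, with 1.64, 1.76 and 1.47 in pools 3 and 4, against -3.95, -4.41 and -4.47 in pool 1 (index 5.90, SE 0.38). Both were above the median transcript on polysomes and had 93.3% and 90.1% of their signal there. At the other end FBtr0085198 had -5.51, -5.38 and -6.19 in pools 3 and 4, against 0.55, -0.09 and 0.10 in pool 1, with an index of -5.88 (SE 0.40, limma adjusted p = 0.00836). FBtr0088419 had an index of -5.79, with an SD of 3.37 between gradients, and the mean levels of both lay at percentile 0.169 of all transcripts or lower.

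The order of transcripts in wild type was then set beside the gradients that took no part in it. Whether wild-type and smaug-mutant samples of opposite dye shared an array is not given in the sources used here. The index of wild-type gradient 1 correlated at r = 0.85 with that of smaug-mutant gradient 1, above the 0.54 to 0.73 among wild-type gradients. In the smaug-mutant gradients 1, 2 and 3, the 883 transcripts called higher in wild type had median centred indices of 2.27, 1.82 and 2.06, and 771 of them (87.3%) were above 0 in all 3, against 36.0% of all transcripts. The 543 lower transcripts had medians of -1.16, -1.80 and -1.59 there, and 436 (80.3%) were below 0 in all 3, against 31.8% of all transcripts. In limma's one-sample test on the smaug-mutant gradients, 1004 transcripts (15.4%) were higher and 767 (11.8%) lower. Of the higher calls 526 were shared, which is 59.6% of those in wild type and 52.4% of those in smaug mutants, and of the lower calls 277, which is 51.0% and 36.1%. No transcript called higher in wild type was called lower in smaug mutants, and 3 were called lower in wild type and higher in smaug mutants.

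A direct test of wild type against smaug mutant on the centred index called 0 transcripts in limma. The smallest adjusted p was 0.251. Before adjustment, p was under 0.05 for 325 transcripts with the higher and 555 with the lower index in wild type. Centring removes a shift common to all transcripts. On the spike-in scale wild type minus smaug mutant had a median of -0.65 over all transcripts, and limma called 4. The median index there was -0.47, -0.19 and 1.77 in smaug-mutant gradients 1, 2 and 3. In wild-type gradients 1, 2 and 3 it was 0.09, -0.90 and -0.33. Only smaug-mutant gradient 3 lay outside the wild-type range, so no general shift between genotypes is read from the -0.65. Among the 1426 transcripts called in wild type, 15.2% had an unadjusted p under 0.05 for this difference, against 13.5% of all. For mio the index was 3.27, 5.33 and 4.69 in wild type, against 4.04, 1.27 and 4.93 in smaug mutants. For CG45089/ND-MNLL it was -3.03, -3.06 and -2.83 in wild type, against -2.56, -3.35 and -3.16 in smaug mutants, a difference of 0.05 (SE 0.46, limma adjusted p = 0.968). The transcript that encodes Smaug was not matched to a row, so the genotype was not checked on it.

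In puromycin gradients the medians of the higher and the lower transcripts no longer stood apart. The 883 higher transcripts had median centred indices of -0.26 and -0.16 in the 2 puromycin gradients, against 1.96 and 1.42 in the 2 cycloheximide gradients. The 543 lower transcripts had medians of -0.13 and 0.11 with puromycin, against -1.58 and -1.04 with cycloheximide. On the spike-in scale the higher transcripts stood at -3.14 and -3.17 with puromycin, against 2.53 and 0.92 with cycloheximide, and all transcripts at -3.06 and -3.12 with puromycin, against 0.52 and -0.64 with cycloheximide. The median of all transcripts was -0.18 and -0.10 with puromycin on the centred scale, so that both groups of transcripts stood near it. In 628 of the 883 (71.1%), both puromycin values lay below both cycloheximide values, against 32.6% of all transcripts. All 4 of these gradients came from smaug-mutant lysate, and none was made from wild type.

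**Figure D4:**
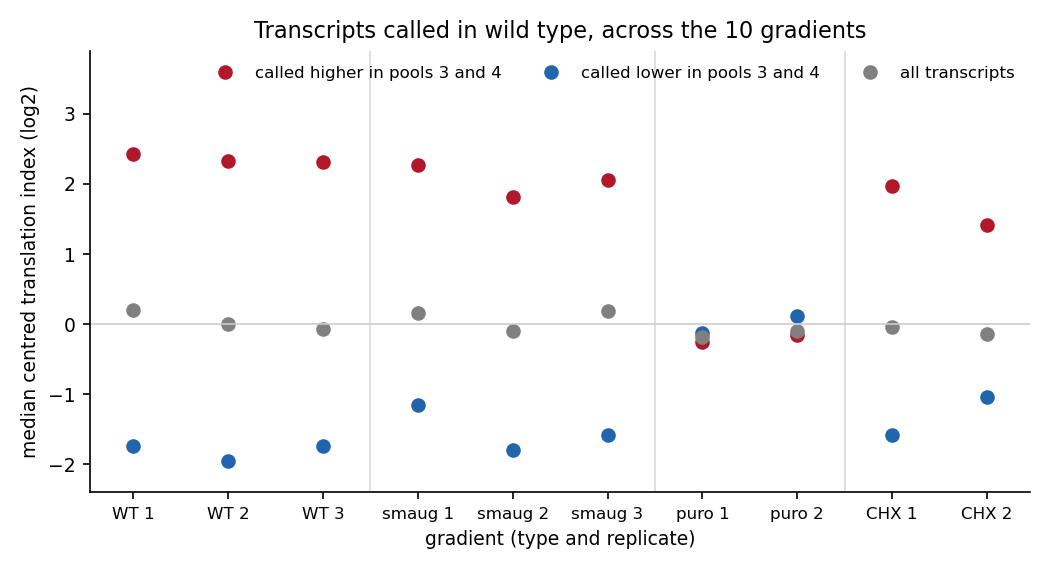
Median centred translation index (y axis, log2 of pools 3 and 4 over pool 1) of the transcripts called higher (red) or lower (blue) in wild type and of all transcripts (grey), in each of the 10 gradients (x axis: wild type, smaug mutant, smaug mutant with puromycin and smaug mutant with cycloheximide). The wild-type points chose the groups and are shown for scale; the groups stay apart in the smaug-mutant and cycloheximide gradients, and all puromycin medians lie between -0.26 and 0.11.

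Single transcripts departed from that pattern on the centred scale. Of the 883 higher transcripts, 21 (2.38%) had a centred index above 2 in both puromycin gradients. The same was seen in 9 of the 543 lower transcripts (1.66%) and in 0.935% of all transcripts. An index above 0 in both was found for 28.1% of the higher, 34.6% of the lower and 28.7% of all transcripts. On the spike-in scale, 0 of the 883 higher transcripts were above 2 in both, and 0 of all 6524 transcripts. Among the named ones, kis had 2.62 and 3.45 with puromycin, against 0.60 and 1.99 with cycloheximide. Alpha-Spec had 2.04 and 2.27 with puromycin, against 4.86 and 0.71 with cycloheximide. These are high places relative to the other transcripts of the same array. On the spike-in scale kis had -0.26 and 0.43 with puromycin, against 1.17 and 1.49 with cycloheximide, and alpha-Spec had -0.84 and -0.74 with puromycin, against 5.43 and 0.21 with cycloheximide. On the centred scale HDAC3 had -1.19 and -1.50 with puromycin, against 1.08 and 2.61 with cycloheximide, and CG16974 had -1.72 and -0.99975 with puromycin, against 2.84 and 2.42 with cycloheximide. In both of those, the puromycin values lay below all of the cycloheximide and wild-type values. The centred index of mio was 1.32 and 0.38 with puromycin, against 6.04 and 4.17 with cycloheximide.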

How the data were processed

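RNA of 4 pools per gradient was hybridised to NimbleGen arrays in 1 dye, Cy3 or Cy5, after priming with random hexamers and anchored oligo-dT. The deposited values are log2 levels, 1 per transcript and array, which the authors made with the quantile step of RMA followed by a linear rescaling per array. Its slope and offset were set by Arabidopsis RNA, of which each pool received the same amount, so an error in that RNA moves or stretches a whole array. Centring removes a move but not a stretch. The SD over transcripts was 1.67, 1.74 and 1.65 in pool 1 of gradients 1, 2 and 3, against 1.24, 1.52 and 1.33 in pool 3. With arrays also rescaled to 1 spread, limma called 954 transcripts higher and 589 lower. Base 2 is assumed from the use of RMA. The authors kept transcripts expressed in both genotypes. For each genotype it was enough to pass their test of expression in 1 of the 4 pools. A transcript kept need therefore not have been detected in every pool. Background signals were not used here, so detection in each pool was not checked, and a very low level in a pool may be background. The number of arrays limits the precision.

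Each array was centred on its median over 6524 transcripts. The index, pools 3 and 4 minus pool 1 within a gradient, was tested against 0 with limma 3.58.1 (lmFit and eBayes, R 4.3.3) on 3 gradients, and p-values were adjusted by Benjamini-Hochberg over all transcripts with a threshold of 0.05. Standard errors are those of limma. Pools are paired because they come from 1 gradient, and the deviations of pools 3 and 4 and of pool 1 from their group means correlated at 0.49, 0.24 and 0.14 in gradients 1, 2 and 3. Wild type and smaug mutant were compared by limma on 1 index per gradient. The labels call the replicates biological. Shares of signal used linear levels over the sum of the 4 pools. The fits were also run on simulated data with independent noise in each array and no gradient that stood apart. That setting differs from the data, so it does not bear on the counts given here.

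The members and gene lists were chosen with earlier results of these data known. Symbols came from RefSeq's gene table (assembly Release 6 plus ISO1 MT), in which 35 transcripts were found. Of the 9 gene lists, covering ribosomal proteins, glycolysis, the TRiC/CCT chaperonin, the proteasome, histones, maternal patterning, cell cycle and translation control genes and translation factors, only histones had a match, 1 of 9 genes, so all are void. The maternal mRNAs meant to check the embryo label had none either. With more than 30 named transcripts, the rule named the called ones with the highest and the lowest estimates, all 3 gradients on 1 side of 0 and pools that did not overlap (8 transcripts), with the 2 highest and 2 lowest unnamed ones. The other named transcripts given with values were chosen after their values were seen. Coordinates are left out because the build of the array is not given in the sources used here. Alternatives are given in the closing section.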

Additional observations from a re-analysis of the deposited data

Results flagged for a closer look

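In 2 named transcripts all 3 wild-type gradients had a centred index below 0 and all 3 smaug-mutant gradients one above 0. The genotypes lay wholly on opposite sides of 0, in either direction, in 287 of 6524 transcripts (4.4%). The share for this 1 direction was not counted. The transcript of Rad1, a subunit of the DNA damage checkpoint clamp, and Sws1 had -0.57, -1.21 and -1.23 in wild type, against 1.19, 1.24 and 2.05 in smaug mutants. The difference was -2.50 (SE 0.49, limma unadjusted p = 0.00104, adjusted p = 0.251 over all transcripts). That equals the smallest adjusted p of this comparison, a value that Benjamini-Hochberg adjustment gives to many transcripts at once. It therefore does not mark this transcript as the strongest difference. The transcript of CG7950 and Rpp14a, a subunit of ribonuclease P, had -0.49, -0.83 and -1.50 in wild type, against 0.31, 0.19 and 0.50 in smaug mutants, a difference of -1.27 (SE 0.47, limma adjusted p = 0.343). Neither difference passed the threshold.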

How the results depend on the processing

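The counts of 883 higher and 543 lower transcripts moved by more than 1.5 times under some alternatives. There were 506 higher calls on the spike-in scale, 1037 lower calls after quantile normalization, 822 lower calls with a trended and robust variance, 315 lower calls with pool 3 alone, and 1550 higher and 1241 lower calls with the mean of pools 1 and 2 in the denominator. Leaving out 1 gradient gave 0 to 958 higher and 0 to 625 lower calls. With the pools unpaired (no replicate block), 758 higher and 522 lower transcripts were called, of which 713 and 441 were also called with pairing. The median index on the spike-in scale, -0.38, became 0.10 with the mean of pools 1 and 2 in the denominator and was between -0.62 and -0.12 under the other alternatives, gradients left out included. The share of signal in pools 3 and 4 was 47.2% to 51.4% with 1 gradient left out. Wild type against smaug mutant had 4 calls on the spike-in scale and 0 with the replicate block, and numbers are not taken as pairs there (correlations of deviations 0.26, 0.45 and -0.05). The 13 called transcripts printed by value gave 174 values under the alternatives, of which 139 passed the threshold in the same direction, 34 did not pass and 1 changed sign. That one was His4r, at -0.28 with the mean of pools 1 and 2. Among the uncalled transcripts printed by value, 8 passed the threshold under at least 1 alternative, 12 times in all and 6 of them with the mean of pools 1 and 2. Transcripts that were not called changed sign as follows. With 1 gradient left out, Dpm2 ranged from -2.11 to 0.52, Uba1 from -0.52 to 1.68 and Dyrk3 from -0.31 to 1.67. SuUR was at -0.10 on the spike-in scale, and Dyrk3 at -0.67 after quantile normalization and -0.11 with pool 3 alone. The causes were not tested.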
